A study of Setaria viridis with 15 samples.

Results

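Setaria viridis shoots grown beside the bacterial isolate AI2.2-A were set against shoots grown beside a dish with no bacteria, the mock control. The comparison used 4 AI2.2-A and 4 Control libraries, 8 of the 15 in the series, taken by their labels alone. Both groups were wild-type seedlings of this small C4 grass. Seedlings 5 days old went into the plates, 2 to a plate, with dilute Murashige and Skoog (½ MS) medium around a small dish of LB medium. In AI2.2-A plates that dish received 20 µL of diluted culture, while Control plates had no inoculum. Each plate was sealed and stood for 7 days in a chamber with 12 h of light at 28 °C and darkness at 25 °C, so plant and bacterium shared air and not medium. The labels name the tissue as shoots and the libraries as biological replicates, but give no species for the isolate and no composition for its volatiles, and do not say how many plates went into a library. The question stated for the series is how the shoot transcriptome responds to bacterial volatile compounds, and the other isolates, CTB P6B8 and MTS P5D6, enter here only to show where AI2.2-A differs from them.

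Bacterial volatiles reach a leaf through the air as small molecules such as carbon dioxide, ammonia, alcohols, ketones and sulfur compounds, and exposed seedlings often grow differently from unexposed ones. In a sealed dish the growing bacteria also share the oxygen and carbon dioxide of the plant. C4 grasses first fix carbon dioxide in the mesophyll with phosphoenolpyruvate carboxylase, move it as a C4 acid to the bundle sheath, and release it there for Rubisco. Low oxygen in plants is sensed by cysteine oxidases that mark some RAP2-type transcription factors, those of ERF group VII, for degradation. Genes for fermentation follow those factors.

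Total counts ran from 18222557 to 23919167 in AI2.2-A libraries and from 13852517 to 20556455 in Control libraries. The biological coefficient of variation, the spread between libraries of a group beyond counting noise, was 0.14 with AI2.2-A and 0.0889 in Control. On the second principal component of log2 CPM (counts scaled to a common library total), which held 24.5% of the variance, AI2.2-A replicate 4 lay at 21.2 and the other 3 AI2.2-A libraries at 45.6 to 54.3. Its nearest value there was the 21.2 of a CTB P6B8 library, the isolate whose 3 libraries lay at 7.54 to 21.2. Results that depend on AI2.2-A replicate 4 are also given without it. Shoot markers (28 genes for Rubisco small subunits, C4 enzymes and antenna proteins) summed to 20800 to 28500 CPM with AI2.2-A and 24400 to 32900 CPM in Control. Root markers (38 genes) summed to 496 to 549 CPM with AI2.2-A and 488 to 530 CPM in Control, meristem markers (59) to 1440 to 1600 and 1520 to 1610 CPM, and seed markers (6) to 3.55 to 7.43 and 1.66 to 4.62 CPM. No marker was at 0 in all 8 libraries, and the part of tissue makeup in the results was not tested. These are bulk libraries, in which fewer cells of a type and less RNA per cell cannot be told apart.

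Of 20310 genes with enough counts to test, 9687 (47.7%) were called between AI2.2-A and Control by edgeR's quasi-likelihood test at a Benjamini-Hochberg adjusted p under 0.05. There were 4743 higher genes (23.4% of those tested) and 4944 lower genes (24.3%), and these 2 shares are the background for every gene group below. Increases were larger than decreases. The median log2 fold change was 0.71 among higher genes and -0.45 among lower genes. At 2-fold or more there were 1642 higher (8.08% of tested) and 501 lower genes (2.47%), at 4-fold 461 and 68, at 8-fold 142 and 10, and at 16-fold 56 and 4. Most calls were small, with 55.0% of them under 1.5-fold. The 4 AI2.2-A libraries stood wholly on one side of the 4 Control libraries in 8893 tested genes (43.8%) and in 8123 of the called genes (83.9%). The direction split rests on scaling: with library totals alone, the median of all genes moved to 0.13, and 67.6% of calls were then higher, against 49.0% here. Gene groups whose leading direction turns under that scaling are named where they are given.

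Values in parentheses that follow an identifier are the log2 fold change of AI2.2-A over Control with its standard error. CPM are scaled by TMM factors, with 4 values per group in replicate order, and are not corrected for transcript length, so they are compared within a gene and not between genes. All genes said to have risen or fallen were called, and a list's remaining members were not.

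The 3 smallest p-values of the comparison belonged to plant cysteine oxidase 2, alcohol dehydrogenase 1 and RAP2-3. Plant cysteine oxidase 2-like (LOC117850613, 1.83 ± 0.08) is of the enzyme type that in Arabidopsis starts the oxygen-dependent breakdown of some RAP2 factors. This gene stood at 64.3, 71.4, 61.6 and 58.7 CPM with AI2.2-A, against 16.7, 18.3, 18.4 and 18.6 CPM in Control (adjusted p = 1.56e-09). RAP2-3-like (LOC117840982, 3.21 ± 0.15) stood at 66.5, 53, 57.8 and 42.7 CPM with AI2.2-A, against 5.26, 6.8, 6.72 and 5.02 CPM in Control (adjusted p = 1.56e-09). Every AI2.2-A library of both genes was above every Control library, and replicate 4 was the lowest of the AI2.2-A libraries in each. Of 10 tested genes in a list for fermentation enzymes and hemoglobins, 9 rose and 1 fell, with a median of 2.41. Built from words, the list also took in a class-3 alcohol dehydrogenase and a mitochondrial D-lactate dehydrogenase, which are not fermentation enzymes. Both were among the risers, with log2 fold changes of 0.36 and 0.22. Non-symbiotic hemoglobin (LOC117840678, 3.83 ± 0.35), a scavenger of nitric oxide under low oxygen, stood at 32.0, 46.5, 38.2 and 31.8 CPM with AI2.2-A, against 2.97, 2.61, 2.06 and 2.74 CPM in Control. Alcohol dehydrogenase 1 (LOC117833817, 3.59 ± 0.17) stood at 29.5, 33.5, 29.0 and 44.1 CPM with AI2.2-A, against 3.31, 2.23, 2.75 and 3.05 CPM in Control. The single lower member, a second hemoglobin-like gene (LOC117850458, -0.47 ± 0.18), had overlapping groups and lost its call in 8 of 17 alternatives, among them without AI2.2-A replicate 4 (adjusted p = 0.112 in edgeR). RAP2-12-like (LOC117840983, 2.83 ± 0.19), named like RAP2-3 for a factor of ERF group VII, rose. Genes with RAP2 names outside that group were mixed. Of these, 1 of 5 RAP2-13-like genes (LOC117854131, 0.56 ± 0.13) rose, RAP2-4-like (LOC117838467, -0.34 ± 0.10) fell, and the other 4 RAP2-13-like genes were not called. RAP2-4-like was no longer called under library totals alone (adjusted p = 0.1 in edgeR).

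**Figure D1:**
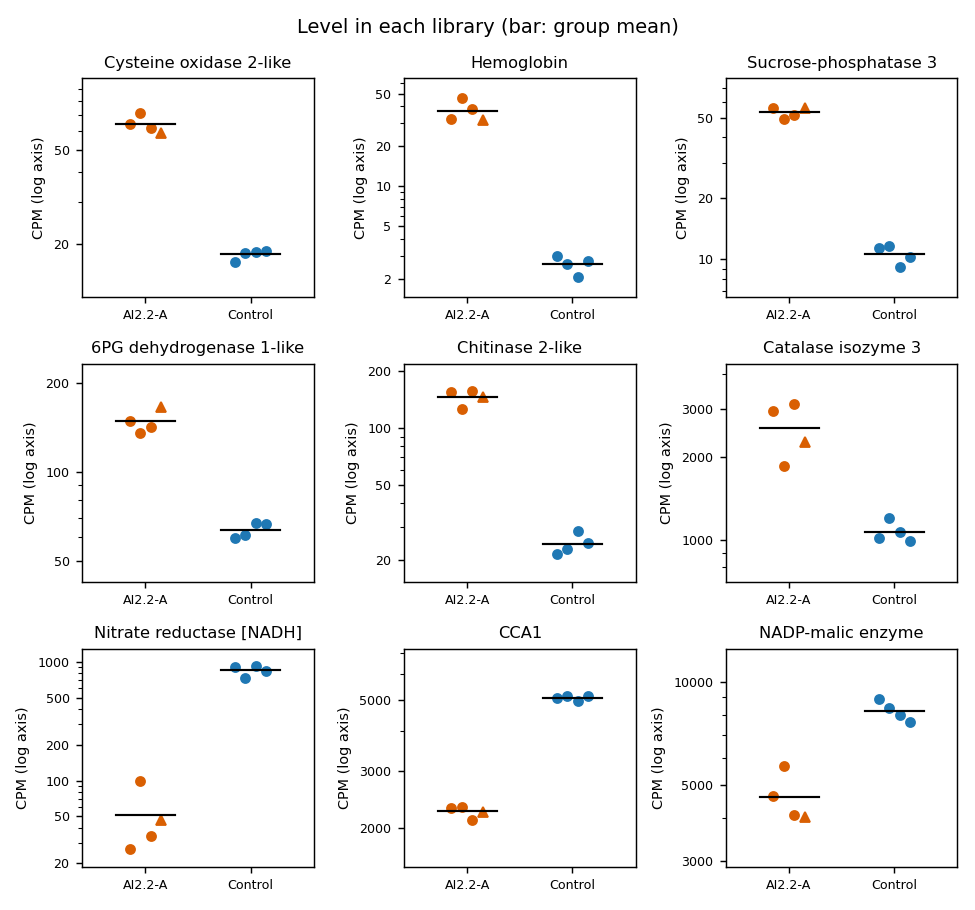
CPM on a log axis for 9 genes in the 4 AI2.2-A libraries (orange, left in each panel) and the 4 Control libraries (blue, right), with the group mean as a bar; AI2.2-A replicate 4 is drawn as a triangle. Groups do not overlap in any panel, with plant cysteine oxidase 2, hemoglobin and sucrose-phosphatase 3 higher and nitrate reductase, CCA1 and malic enzyme lower with AI2.2-A.

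Carbon breakdown transcripts rose alongside. Among 39 glycolysis genes 25 rose (64.1%) and 5 fell, with a median of 0.44, and their summed level was 6293 ± 371 CPM with AI2.2-A and 4646 ± 185 CPM in Control (SD, n = 4 each). Cytosolic fructose-bisphosphate aldolase 1 (LOC117857168, 1.01 ± 0.08) averaged 258 ± 23.2 CPM with AI2.2-A and 128 ± 8.11 CPM in Control, and cytosolic glyceraldehyde-3-phosphate dehydrogenase 3 (LOC117860570, 1.95 ± 0.17) rose too. Against the list, the NADP-dependent glyceraldehyde-3-phosphate dehydrogenase (LOC117860497, -1.55 ± 0.17), which makes NADPH in place of ATP, fell. In the oxidative pentose phosphate pathway, the main source of NADPH outside photosynthesis, 10 of 14 genes rose (71.4%) and none fell. Its 6-phosphogluconate dehydrogenase 1 (LOC117852099, 1.22 ± 0.08) stood at 149, 135, 142 and 166 CPM with AI2.2-A, against 59.5, 61.3, 67.3 and 66.5 CPM in Control (adjusted p = 5.54e-08). Cytoplasmic glucose-6-phosphate dehydrogenase (LOC117860511, 0.90 ± 0.10), the committed step, rose as well.

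Mitochondrial energy genes shifted by small amounts in a common direction. Of 60 respiratory chain and ATP synthase genes 41 rose (68.3%) and 1 fell, with a median of 0.39, and only 3 reached 2-fold. The ATP synthase gamma subunit (LOC117835141, 0.65 ± 0.07) and cytochrome c oxidase subunit 6b-1 (LOC117842214, 0.70 ± 0.08) rose, while a cytochrome c1 gene (LOC117841532, -0.48 ± 0.09) fell. Their summed level was 4127 ± 147 CPM with AI2.2-A and 3280 ± 94.6 CPM in Control (SD, n = 4 each), without overlap. Among 34 genes of a TCA cycle list 18 rose and 4 fell, including citrate synthase 4 (LOC117862245, 0.74 ± 0.07), the entry step, as a riser. That list also took in a chloroplast pyruvate dehydrogenase subunit (LOC117838845, -0.33 ± 0.05), which was among those lower and is not mitochondrial. Of 71 mitochondrial carriers 26 rose and 11 fell, and under library totals alone these counts were 42 and 8. The pyruvate carrier 1 (LOC117859905, 0.63 ± 0.11), which brings pyruvate into the organelle, rose. Outside the lists, mitochondrial aldehyde dehydrogenase 2B7 (LOC117836625, 1.64 ± 0.11), of a family that oxidises acetaldehyde, stood at 169, 132, 169 and 150 CPM with AI2.2-A, against 50.2, 59.0, 47.1 and 42.8 CPM in Control.

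Sucrose and starch genes leaned the other way, with 15 of 65 higher and 27 lower (41.5%). Sucrose-phosphate synthase (LOC117857684, -0.99 ± 0.09), a rate-setting step of sucrose synthesis, and soluble starch synthase 2-1 (LOC117838981, -1.11 ± 0.10) fell. Cytosolic fructose-1,6-bisphosphatase (LOC117858559, -1.39 ± 0.14), the gate of carbon into sucrose, stood at 329, 489, 290 and 413 CPM with AI2.2-A, against 1070, 908, 997 and 1005 CPM in Control. By contrast a sucrose-phosphatase 3 gene (LOC117848794, 2.32 ± 0.14), the last step of the same path, stood at 55.7, 49.4, 51.4 and 55.8 CPM with AI2.2-A, against 11.3, 11.6, 9.16 and 10.2 CPM in Control. Sucrose synthase 1 (LOC117852695, 0.70 ± 0.10), which cleaves sucrose, rose. Neither of these 2 risers nor the bisphosphatase had overlapping groups. Sugar transporters were split, 17 of 61 higher and 15 lower, and the order of these counts turned to 15 and 16 without AI2.2-A replicate 4.

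C4 photosynthesis transcripts took a smaller share of the AI2.2-A libraries. The 18 tested C4 shuttle genes summed to 28770, 30439, 25983 and 29325 CPM with AI2.2-A, against 48123, 42484, 44443 and 43773 CPM in Control, a ratio of 0.64. A few abundant transcripts set that sum. Pyruvate, phosphate dikinase 2 (LOC117850669, -0.70 ± 0.10), which regenerates the carbon acceptor, stood at 14451, 13957, 13278 and 15561 CPM with AI2.2-A, against 22992, 22006, 23883 and 24339 CPM in Control. The chloroplast NADP-malic enzyme (LOC117857444, -0.84 ± 0.12), which frees carbon dioxide in the bundle sheath, stood at 4622, 5666, 4085 and 4029 CPM with AI2.2-A, against 8911, 8385, 7980 and 7599 CPM in Control. A chloroplastic-like carbonic anhydrase (LOC117855863, -1.32 ± 0.28) stood at 484, 871, 349 and 675 CPM with AI2.2-A, against 2232, 1227, 1288 and 1189 CPM in Control. Groups did not overlap for any of these 3 genes, and Control replicate 1 held the highest value for the malic enzyme and the anhydrase. By count the list was less one-sided, with 6 of 18 higher and 8 lower. A phosphoenolpyruvate carboxylase 1 gene (LOC117835252, 0.67 ± 0.06) rose, at 314 ± 10.3 CPM with AI2.2-A and 197 ± 3.72 CPM in Control. Its description does not say whether this copy serves the C4 cycle.

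Pigment and light-harvesting genes were mostly lower or uncalled. Of 38 photosystem and antenna genes 15 fell (39.5%) and 1 rose, chlorophyll a-b binding protein 1 (LOC117844591, 0.70 ± 0.17), but the lower count was 5 under library totals alone and 9 when either AI2.2-A replicate 3 or Control replicate 1 was left out. Their summed levels overlapped, at 18072 to 25286 CPM with AI2.2-A and 21505 to 25929 CPM in Control. Carotenoid genes were more uniform, with 19 of 28 lower (67.9%) and 2 higher. Violaxanthin de-epoxidase (LOC117863445, -0.64 ± 0.08), of the photoprotective xanthophyll cycle, and a D27 isomerase gene (LOC117859878, -1.48 ± 0.14), which leads into strigolactones, fell. In chlorophyll synthesis 9 of 25 genes fell and 3 rose, including magnesium chelatase subunit ChlH (LOC117863876, -0.80 ± 0.11) among those lower. Genes of senescence and chlorophyll breakdown fell in 9 of 14 cases, for example STAY-GREEN LIKE (LOC117848460, -1.07 ± 0.11), with a single riser. That riser, chlorophyllase-1-like (LOC117842290, 3.94 ± 0.36), stood at 58.2, 52.8, 37.6 and 31.0 CPM with AI2.2-A, against 2.63, 1.79, 3.59 and 3.77 CPM in Control. Chlorophyllases remove the phytol tail of chlorophyll. The chloroplast protein synthesis factors named by the rule also fell. Elongation factor G-2 (LOC117863885, -1.19 ± 0.12) stood at 463, 634, 443 and 576 CPM with AI2.2-A, against 1321, 1218, 1113 and 1167 CPM in Control, and release factor PrfB3 (LOC117850434, -1.80 ± 0.12) averaged 31 ± 5 CPM with AI2.2-A and 108 ± 15.4 CPM in Control.

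Clock and light-signalling lists held more lower than higher genes. The morning factor CCA1 (LOC117861503, -1.17 ± 0.08) stood at 2318, 2333, 2127 and 2251 CPM with AI2.2-A, against 5062, 5135, 4949 and 5145 CPM in Control (adjusted p = 6.25e-08). GIGANTEA (LOC117857839, 1.05 ± 0.16), which peaks later in the day in other plants, stood at 278, 220, 388 and 357 CPM with AI2.2-A, against 119, 144, 168 and 167 CPM in Control. Neither gene had overlapping groups. In all, 10 of 20 clock genes fell and 4 rose, with 3 REVEILLE 6-like genes among the lower ones (LOC117866937, -0.77 ± 0.06, the smallest p of them). The time of harvest is not given in the labels, and its part in these values was not tested. Of 50 light-signalling genes 27 fell (54.0%) and 3 rose, with a median of -0.40. A cryptochrome-1-like gene (LOC117864090, -0.48 ± 0.06), a blue light receptor, and COP1 (LOC117839617, -0.60 ± 0.08), the ligase that degrades light-response factors in the dark, both fell.

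The reduction steps of nitrate assimilation fell, while many amino acid and ammonium transporters rose. Nitrate reductase (LOC117860413, -4.04 ± 0.36) stood at 26.2, 100, 34.1 and 46.3 CPM with AI2.2-A, against 910, 738, 924 and 841 CPM in Control. Ferredoxin-nitrite reductase (LOC117839299, -2.04 ± 0.15), the next step, stood at 18.4, 28.2, 21.9 and 15.7 CPM with AI2.2-A, against 95.8, 80.7, 89.2 and 79.3 CPM in Control. Ferredoxin-dependent glutamate synthase (LOC117843736, -1.31 ± 0.11), which closes the cycle that takes up ammonium, stood at 523, 585, 486 and 657 CPM with AI2.2-A, against 1385, 1305, 1395 and 1482 CPM in Control. All 3 were lower in every AI2.2-A library than in any Control library, and a second nitrate reductase, of the NAD(P)H type (LOC117839581, -1.93 ± 0.5), fell as well. Over the list 8 of 17 genes fell (47.1%) and 2 rose, and both risers were glutamine synthetases, including the cytosolic isozyme 1-1 (LOC117837154, 0.66 ± 0.07). Mitochondrial glutamate dehydrogenase 2 (LOC117864129, -1.06 ± 0.17) stood at 1151, 977, 1293 and 1752 CPM with AI2.2-A, against 1985, 2546, 3107 and 3118 CPM in Control. Of 61 ammonium and amino acid transporters 23 rose (37.7%) and 8 fell, 13 of them at least 2-fold higher, including ammonium transporter 2 member 1 (LOC117846954, 1.38 ± 0.16). The 63 NRT1/PTR transporters were divided, 18 higher and 15 lower, with the order turned to 14 and 15 without AI2.2-A replicate 3. Amino acid synthesis rose in 34 of 81 genes (42.0%) and fell in 9. Argininosuccinate synthase (LOC117849928, 1.33 ± 0.09), of arginine synthesis, stood at 199, 225, 210 and 234 CPM with AI2.2-A, against 86.7, 88.3, 87.5 and 82.2 CPM in Control.

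Other nutrient groups held large single changes in a mixed field. Of 121 iron and metal genes 50 rose (41.3%) and 27 fell, 26 and 6 of them at least 2-fold. Copper transporter 1-like (LOC117855355, 2.03 ± 0.14) stood at 90.5, 94.0, 85.5 and 63.7 CPM with AI2.2-A, against 24.2, 18.4, 21.8 and 17.5 CPM in Control. A 2'-deoxymugineic-acid 2'-dioxygenase-like gene (LOC117847021, 1.42 ± 0.11), of the siderophore path by which grasses collect iron, rose, and zinc transporter 7-like (LOC117846854, -1.20 ± 0.10) fell. The chloroplast copper-zinc superoxide dismutase (LOC117860655, -1.68 ± 0.12), a copper enzyme, stood at 39.9, 54.4, 40.1 and 54.8 CPM with AI2.2-A, against 173, 150, 144 and 137 CPM in Control. Of 71 phosphate starvation genes 30 rose (42.3%) and 18 fell, with 17 risers at 2-fold or more and no gene lower by that much. GDPD6-like (LOC117839276, 2.57 ± 0.22), a glycerophosphodiester phosphodiesterase by its description, rose. It stood at 43.6, 50.5, 46.0 and 48.4 CPM with AI2.2-A, against 6.61, 8.92, 8.7 and 7.55 CPM in Control. Groups were apart in each of these 3 genes. In 25 aquaporins, the water channels, 3 rose and 1 fell, below both background shares, with 1 higher and none lower without AI2.2-A replicate 2, and 1 of each without Control replicate 4.

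Few cell division genes were called. Of 113 cyclin and mitosis genes 19 rose and 12 fell, of 58 DNA replication genes 7 rose and 4 fell, and both lists stayed below the background shares. For the cyclin list the counts were 11 and 10 with AI2.2-A replicate 1 left out, 12 and 10 with Control replicate 2 left out, and 12 and 11 with Control replicate 3 left out. They were 30 and 13 in limma-voom and 36 and 5 under library totals alone. For DNA replication they were 11 and 4 without AI2.2-A replicate 4, and 12 and 3 under library totals alone. Of 47 histone genes, in a list that took in linker histones H1 as well as core histones, 7 were higher and 11 lower. That order turned to 16 and 10 without AI2.2-A replicate 4 and to 14 and 7 under library totals alone. Histone and other near-identical copies can share reads, so their single values are uncertain. Cyclin-D3-1-like (LOC117838967, 0.76 ± 0.10), a driver of cell division, rose, and the kinesin KIN-14L (LOC117854027, -1.10 ± 0.07) stood at 165, 187, 165 and 198 CPM with AI2.2-A, against 376, 366, 383 and 411 CPM in Control. Actin-7 (LOC117864194, -1.13 ± 0.09) stood at 486, 506, 455 and 503 CPM with AI2.2-A, against 1095, 1075, 1061 and 1048 CPM in Control. Both cytoskeleton genes had well separated groups. Growth and meristem regulators fell in 34 of 97 cases (35.1%) and rose in 15. HOX15-like (LOC117835166, -1.0 ± 0.12), a homeobox-leucine zipper protein by its name, was among those lower.

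Among cell wall genes, xyloglucan endotransglucosylases, which cut and rejoin wall tethers, fell in 6 of 18 cases and rose in 1, with a summed level of 1073 ± 85 CPM with AI2.2-A and 1437 ± 71 CPM in Control (SD, n = 4 each). Expansins, which loosen the wall, rose in 7 of 27 cases (25.9%, near the background) and fell in 2, and their summed level overlapped, at 473 ± 50 CPM with AI2.2-A and 502 ± 11.1 CPM in Control. The counts were 5 and 6 without AI2.2-A replicate 1 and 4 and 2 without AI2.2-A replicate 2. Lignin and phenylpropanoid genes rose in 56 of 121 cases (46.3%) and fell in 19, 30 and 9 of them at least 2-fold. A laccase-15-like gene (LOC117833551, 1.65 ± 0.11), of the oxidases that polymerise lignin, stood at 98.8, 88.6, 85.6 and 81 CPM with AI2.2-A, against 24.8, 27, 30.2 and 31.2 CPM in Control. Caffeoylshikimate esterase-like (LOC117847593, -0.92 ± 0.09), of monolignol synthesis, fell. Pectin acetylesterase 5-like (LOC117856093, 2.48 ± 0.21) rose in a list with 21 of 84 higher and 17 lower.

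Auxin genes leaned lower on the signalling and the transport side. Auxin signalling fell in 41 of 97 genes (42.3%) and rose in 11, and 16 members fell at least 2-fold, against 2.47% of all tested genes. The response factors ARF18 (LOC117852829, -0.97 ± 0.06) and ARF8-like (LOC117863124, -1.38 ± 0.12) fell, and IAA16-like (LOC117848902, 0.77 ± 0.12), of the repressor family, rose. Of 25 auxin transport and synthesis genes 9 fell and none rose. PIN-LIKES 7-like (LOC117841985, -1.53 ± 0.12), an auxin carrier of the endoplasmic reticulum by family, stood at 54.9, 70.6, 54.9 and 65.8 CPM with AI2.2-A, against 182, 153, 190 and 184 CPM in Control. The summed level of this list was 401, 415, 403 and 410 CPM with AI2.2-A, against 665, 642, 716 and 683 CPM in Control. Both sets of values were far apart. A run of 11 neighbouring genes, the longest stretch of adjacent tested genes called one way, was lower throughout, and 10 of them are annotated as auxin-responsive SAUR36-like, with log2 fold changes of -0.97 to -1.83. Such tandem copies can share reads, so their single values are uncertain. The auxin signalling counts were not made without this run, so its genes may form part of the 41 and the 16.

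Gibberellin genes rose in 11 of 28 cases (39.3%) and fell in 4, led by an ent-copalyl diphosphate synthase 2-like gene (LOC117841994, 2.64 ± 0.42) and an ent-kaurene oxidase 2-like gene (LOC117853040, 1.65 ± 0.32). These enzyme families start gibberellin synthesis, and in rice related copies make diterpene defence compounds. The receptor GID1 (LOC117849637, -0.66 ± 0.12) fell. Jasmonate genes rose in 16 of 41 cases (39%) and fell in 5. Among the risers were allene oxide cyclase (LOC117840603, 1.22 ± 0.11), of jasmonate synthesis, and a putative 12-oxophytodienoate reductase 5 (LOC117847303, 1.61 ± 0.16). The name of this reductase does not say whether the copy acts in jasmonate synthesis. Ethylene genes were split, 10 of 23 higher and 8 lower, and included an ACC oxidase-like gene that rose (LOC117851022, 1.01 ± 0.14). Of 14 salicylate genes 1 rose and 3 fell, among those lower isochorismate synthase 2-like (LOC117843309, -0.57 ± 0.09), of salicylate synthesis. Cytokinin genes fell in 13 of 41 cases and rose in 9, and abscisic acid and PP2C genes fell in 12 of 40 and rose in 8, but under library totals alone the counts were 13 higher and 10 lower, and 13 and 7.

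Receptor kinases of the cell surface rose widely. Of 202 receptor kinases of the wall-associated, lectin and cysteine-rich types 127 rose (62.9%) and 9 fell, 84 of them at least 2-fold higher, with a median of 0.84. Cysteine-rich receptor-like kinase 10 (LOC117845217, 2.15 ± 0.14) stood at 75.8, 68, 85.4 and 75.4 CPM with AI2.2-A, against 16.1, 17.9, 16.3 and 18.3 CPM in Control. Of 186 leucine-rich repeat kinases 87 rose (46.8%) and 15 fell, among them an Xa21-like gene (LOC117860633, 2.22 ± 0.22), named for a rice immune receptor, as a riser. NLR receptors, the immune sensors inside the cell, did not share this: 40 of 242 rose and 73 fell (30.2%), although under library totals alone 65 were higher and 49 lower. Pik-2-like (LOC117833123, -1.27 ± 0.10) was among those lower.

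Effector proteins of defence rose with the surface kinases. Of 76 pathogenesis-related proteins, thaumatins and inhibitors 40 rose (52.6%) and 1 fell, 30 of them at least 2-fold, and the list summed to 3572, 3789, 3200 and 4000 CPM with AI2.2-A, against 1604, 1601, 1599 and 1510 CPM in Control. The wound-induced proteinase inhibitor WIP1-like (LOC117855039, 1.6 ± 0.21) stood at 677, 815, 616 and 953 CPM with AI2.2-A, against 268, 253, 244 and 243 CPM in Control. Of 72 chitinases and glucanases 31 rose (43.1%) and 7 fell, and chitinase 2-like (LOC117833954, 2.59 ± 0.14) stood at 155, 126, 157 and 147 CPM with AI2.2-A, against 21.5, 22.9, 28.4 and 24.7 CPM in Control. No library of one group reached the range of the other in these values. A run of 8 adjacent chitinase genes annotated as endochitinase A or B rose together, with log2 fold changes of 0.82 to 3.21, and reads may be shared between them. WRKY factors, regulators of defence genes, rose in 32 of 72 cases (44.4%) and fell in 7, including WRKY51 (LOC117849840, 1.63 ± 0.14). Indole-2-monooxygenase-like (LOC117859916, 3.01 ± 0.35), of the family that makes benzoxazinoids in maize, and a beta-caryophyllene synthase-like gene (LOC117863066, 2.70 ± 0.52) rose in a list of 38 with 16 higher and 5 lower.

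There were 4 genes that had no read in any Control library and at least 10 counts in each AI2.2-A library, and no gene showed the reverse. An indole-3-glycerol phosphate lyase-like gene (LOC117836702), of the enzyme type that frees indole, had 127, 104, 12 and 44 counts with AI2.2-A, which is at least 79.2-fold above a floor of 3 counts over the 4 Control libraries. A pathogenesis-related protein 1-like gene (LOC117839701) had 32, 39, 18 and 42 counts, at least 36.2-fold above that floor. The others were a CYP73A100-like cytochrome P450 (LOC117850934) with 30, 63, 16 and 23 counts and an alpha-zein 16-like gene (LOC117840433) with 30, 29, 65 and 49 counts.

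Several redox and detoxification families held more higher than lower genes. Of 87 class III peroxidases 42 rose (48.3%) and 8 fell, and the list summed to 4126 ± 293 CPM with AI2.2-A and 2165 ± 88.8 CPM in Control (SD, n = 4 each). Peroxidase 2-like (LOC117843537, 1.65 ± 0.16) stood at 1552, 918, 1108 and 944 CPM with AI2.2-A, against 359, 349, 374 and 357 CPM in Control, and peroxidase 1-like (LOC117858930, 1.11 ± 0.23) at 588, 651, 615 and 963 CPM with AI2.2-A, against 319, 350, 341 and 299 CPM in Control. Catalase isozyme 3 (LOC117841557, 1.25 ± 0.15), which breaks down hydrogen peroxide, stood at 2943, 1852, 3124 and 2268 CPM with AI2.2-A, against 1020, 1202, 1070 and 991 CPM in Control. The AI2.2-A libraries of these 3 genes were spread widely and did not overlap with Control, a condition of the rule that named abundant genes. Of 63 glutathione S-transferases 29 rose (46.0%) and 6 fell, of 113 cytochrome P450 genes 45 rose (39.8%) and 18 fell, and of 68 flavonoid genes 26 rose and 7 fell. Cytosolic ascorbate peroxidase 2 (LOC117842945, 1.09 ± 0.11) rose in an antioxidant list with 21 of 53 higher and 15 lower. Glutaredoxins and thioredoxins gave 15 of 70 higher and 19 lower, near even, and the order turned to 18 and 16 with AI2.2-A replicate 4 left out, to 23 and 12 under library totals alone, to 16 and 15 with no filter on low counts, and to 18 and 16 in the replicate block fit of these 8 libraries.

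Further genes stand out by their share of the counts among those changed at least 2-fold without overlap between the groups. A glycine-rich domain-containing protein 2-like gene (LOC117867029, 1.66 ± 0.13) stood at 947, 630, 982 and 742 CPM with AI2.2-A, against 219, 258, 289 and 276 CPM in Control. Abscisic stress-ripening protein 5-like (LOC117866219, 1.52 ± 0.11) stood at 560, 578, 591 and 534 CPM with AI2.2-A, against 186, 158, 214 and 228 CPM in Control. Groups did not overlap in either. Linoleate 9S-lipoxygenase 3 (LOC117836611, 1.29 ± 0.15), which oxidises membrane fatty acids, stood at 647, 392, 625 and 448 CPM with AI2.2-A, against 221, 207, 224 and 215 CPM in Control. The light-inducible protein CPRF2-like (LOC117848291, 1.18 ± 0.14), a bZIP protein in parsley, stood at 325, 294, 407 and 381 CPM with AI2.2-A, against 150, 163, 156 and 152 CPM in Control. Among lower genes the protein TSS (LOC117841118, -1.26 ± 0.08) stood at 558, 570, 531 and 577 CPM with AI2.2-A, against 1328, 1335, 1303 and 1398 CPM in Control. In all 5 the AI2.2-A range lay outside the Control range, as the rule that picked them required.

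Cytosolic ribosomal protein genes rose by small amounts in large numbers. Of 193 cytosolic ribosomal proteins 127 rose (65.8%) and 1 fell, yet the median was 0.28 and 1 gene reached 2-fold. Their summed level was 29881, 32604, 29821 and 30141 CPM with AI2.2-A, against 27988, 25836, 24367 and 24281 CPM in Control. The gap between the groups was small beside the sum and no library crossed it. Organelle ribosomal proteins did not share this: 24 of 89 rose (27%, near the 23.4% of all tested genes) and 5 fell, with a median of 0.04, and their summed level overlapped, at 5521 ± 272 CPM with AI2.2-A and 5639 ± 399 CPM in Control (SD, n = 4 each). The list for protein disulfide isomerases and endoplasmic reticulum folding rose in 30 of 68 (44.1%) and fell in 14. The chaperone endoplasmin (LOC117851319, 1.21 ± 0.11) and protein disulfide-isomerase (LOC117833431, 0.87 ± 0.07) were among the risers. Built from words, the list also took in a chloroplast isomerase, FKBP16-1 (LOC117854957, -0.58 ± 0.07), which fell. Proteasome subunits rose in 21 of 63 cases and fell in 4, and were 43 and 1 under library totals alone. Autophagy genes, which build the vesicles that carry cell contents to the vacuole, fell in 14 of 21 cases (66.7%) and none rose, with 8 lower and 1 higher under library totals alone. ATG18f-like (LOC117855420, -0.75 ± 0.09) stood at 102, 104, 100 and 119 CPM with AI2.2-A, against 164, 190, 181 and 182 CPM in Control. F-box and RING ligases fell in 161 of 560 cases (28.7%) and rose in 91, and pentatricopeptide proteins, which process organelle RNA, fell in 75 of 375 (20%, below the 24.3% of all tested genes) and rose in 25, but under library totals alone these were 131 higher and 104 lower, and 44 and 43.

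**Figure D2:**
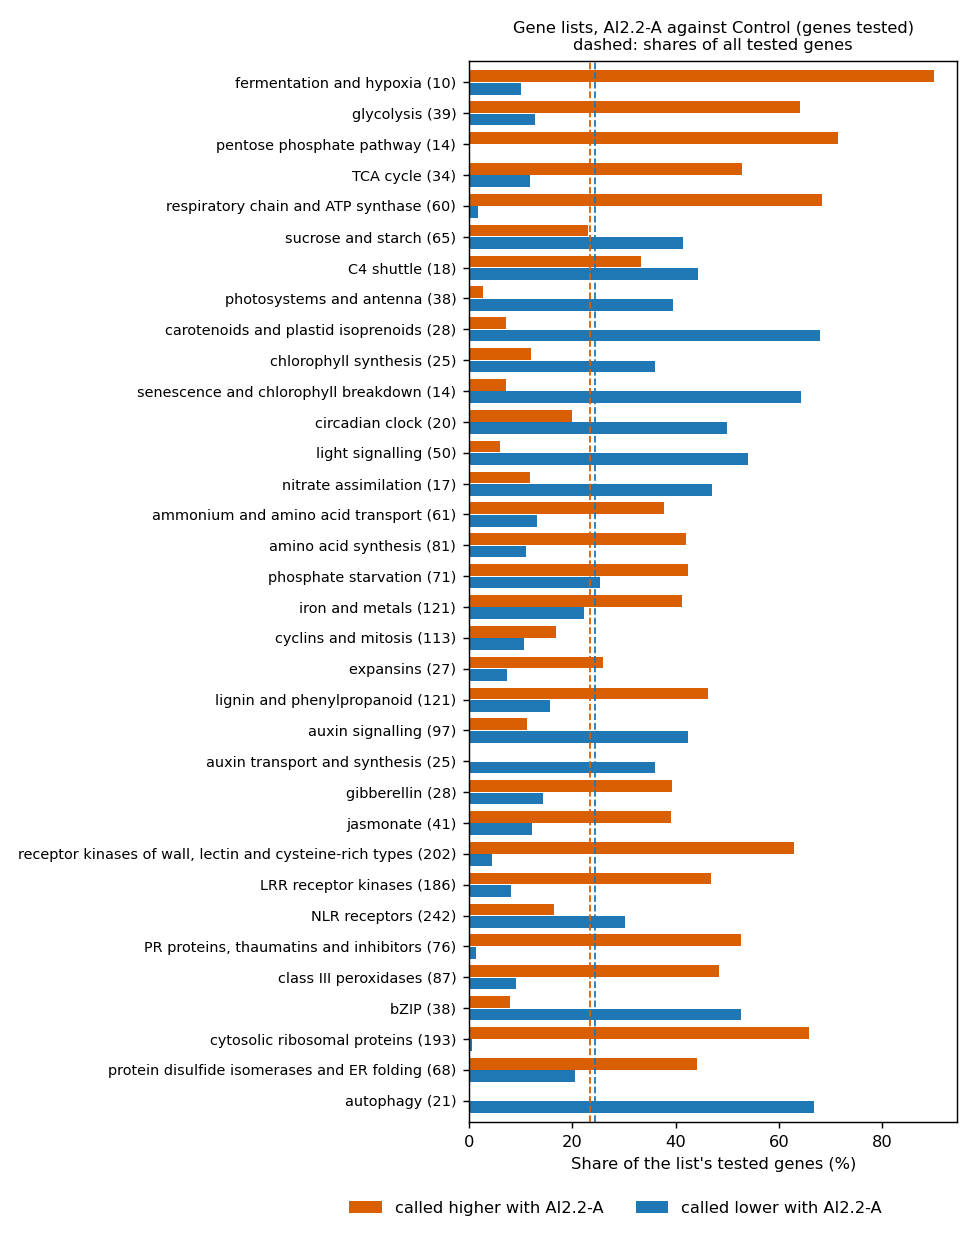
Share of tested members called higher (orange, above) and lower (blue, below) with AI2.2-A in 34 gene lists, in percent, with the shares over all 20310 tested genes as dashed lines (23.4% higher, 24.3% lower). Wall, lectin and cysteine-rich kinases, respiratory chain and cytosolic ribosomal lists extend far beyond the orange line, and autophagy, carotenoid and light-signalling lists beyond the blue line.

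Transcription factor families did not move alike. AP2/ERF and DREB factors rose in 24 of 90 cases (26.7%) and fell in 9, and bHLH factors rose in 20 of 73 (27.4%) and fell in 12. Both higher shares were near the 23.4% of all tested genes, and both lower shares were below the 24.3% of all tested genes. By contrast bZIP factors fell in 20 of 38 cases (52.6%) and rose in 3. The bZIP factors RISBZ5-like (LOC117860232, -0.75 ± 0.12) and bZIP46-like (LOC117854196, -0.73 ± 0.11) fell, while bZIP50-like (LOC117852898, 1.30 ± 0.12), related to a rice factor of the unfolded protein response, rose. NAC and MYB factors were near even, 16 higher and 18 lower of 63, and 18 and 25 of 84, with the order turned under library totals alone to 17 and 11, and 23 and 18. The NAC order also turned, to 16 and 14 without AI2.2-A replicate 1 or with no filter on low counts, and to 15 and 13 without AI2.2-A replicate 3, Control replicate 3 or Control replicate 4. NAC68-like (LOC117857365, 1.78 ± 0.14) averaged 107 CPM with AI2.2-A and 31.3 CPM in Control.

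Lipid transfer and wax genes rose in 62 of 175 cases (35.4%) and fell in 38, and non-specific lipid-transfer protein 1-like (LOC117862450, 1.91 ± 0.14) averaged 119 CPM with AI2.2-A and 31.7 CPM in Control. A run of 8 adjacent higher genes held 5 DIR1-type lipid-transfer genes, with log2 fold changes of 0.53 to 2.79, whose reads may be shared. Acyl carrier protein 2 (LOC117842302, 1.33 ± 0.13) rose and the chloroplast omega-6 desaturase (LOC117860498, -1.01 ± 0.09) fell in a fatty acid list with 17 of 53 higher and 16 lower, an order that turned to 14 and 16 without AI2.2-A replicate 2 or Control replicate 4 and to 15 and 16 without Control replicate 2 or 3. Neighbouring genes were called the same way somewhat more often than the opposite way. In the gene order of the assembly Setaria_viridis_v4.0, used for neighbours only, 27.8% of the neighbours of higher genes were higher and 21.3% lower. Of the neighbours of lower genes 20.4% were higher and 26.6% lower, and of those of uncalled genes 22.8% and 24.9%, over 20001 adjacent pairs of tested genes.

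AI2.2-A was then compared with the mean of CTB P6B8 (3 libraries) and MTS P5D6 (4 libraries), a comparison in which no Control library enters. These isolates lay apart on the second principal component, CTB P6B8 at 7.54 to 21.2 and MTS P5D6 at -35.15 to -46.5. A difference from their mean can come from either isolate alone, and neither was set against AI2.2-A by itself. The comparison called 6979 genes (34.4%), 3639 higher (17.9%) and 3340 lower (16.4%) with AI2.2-A. That split rests on scaling too, with 4889 higher and 2461 lower under library totals alone and 3474 and 3692 in DESeq2. With AI2.2-A replicate 1 left out, 4937 genes were called. Cell division and expansin lists held far more higher than lower genes here. Of 113 cyclin and mitosis genes 70 were higher with AI2.2-A and 2 lower, with a median of 0.46. Of 27 expansins 19 were higher and 4 lower, with a median of 1.00, and of 58 DNA replication genes 24 were higher and 4 lower. Splicing factors ran the other way, 5 of 118 higher and 47 lower, and so did autophagy, none of 21 higher and 15 lower. Each of these 5 lists kept its leading direction in the 15 alternatives of this comparison. None of these left out a CTB P6B8 or MTS P5D6 library, and those without a Control library changed only the shared fit. Under library totals alone splicing was 12 higher and 35 lower and autophagy 1 and 7, and with AI2.2-A replicate 1 left out they were 1 and 35, and 0 and 6. Against Control the splicing list had no stable order: 19 were higher and 29 lower, but 29 and 10 under library totals alone, 19 and 17 with no filter, 19 and 18 in a fit of the 8 AI2.2-A and Control libraries with or without the replicate block, 18 and 18 with AI2.2-A replicate 2 left out and 14 and 17 with Control replicate 4 left out.

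**Figure D3:**
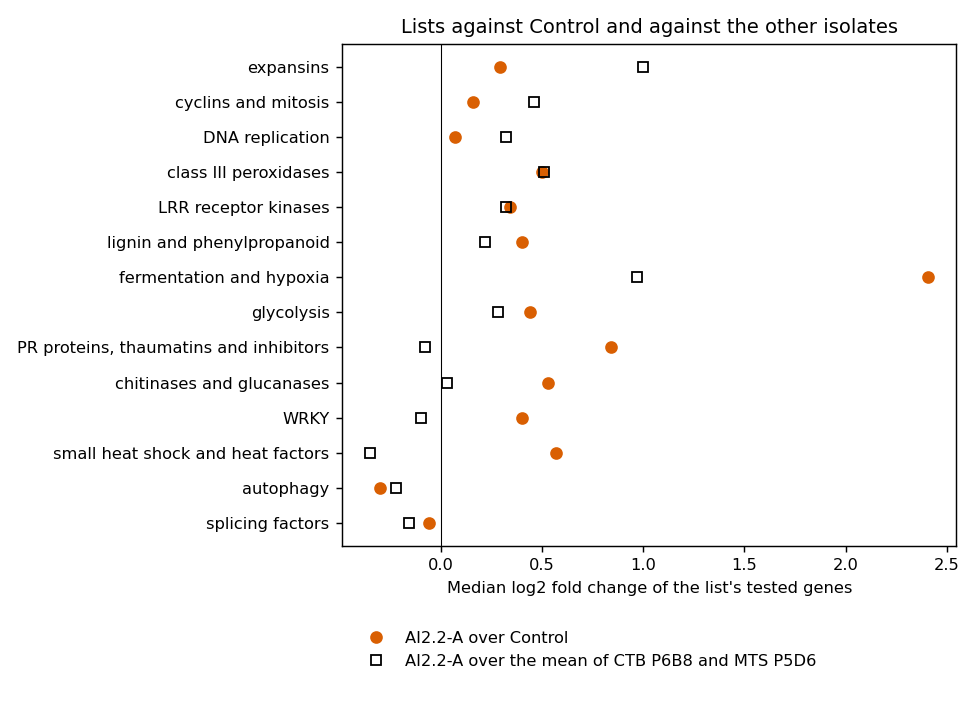
Median log2 fold change of 14 gene lists with AI2.2-A over Control (filled circles) and with AI2.2-A over the mean of CTB P6B8 and MTS P5D6 (open squares). Expansins and cyclins sit near 0.29 and 0.16 over Control and at 1.00 and 0.46 over the other isolates, while chitinases and pathogenesis-related proteins sit at 0.53 and 0.84 over Control and near 0 over the other isolates.

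Among single genes, enzymes of indole alkaloids and fermentation were above the other isolates. A 3-aminomethylindole N-methyltransferase-like gene (LOC117867045), of an enzyme that in barley makes the alkaloid precursor of gramine, stood at 60.7, 65.1, 35.0 and 26.1 CPM with AI2.2-A and averaged 7.79 CPM with the other isolates and 7.91 CPM in Control. Its log2 fold change over the other isolates was 2.71 ± 0.23 (adjusted p = 3.33e-06 in edgeR). Tryptophan decarboxylase 1-like (LOC117834374), which turns tryptophan into tryptamine, stood at 49.0, 57.4, 28.2 and 21.1 CPM with AI2.2-A and averaged 9.75 CPM with the other isolates and 7.95 CPM in Control, with a log2 fold change over the other isolates of 2.08 ± 0.21. In both genes replicates 3 and 4 lay below replicates 1 and 2, and all 4 lay above every Control library. Alcohol dehydrogenase 2 (LOC117834143) averaged 58.2 CPM with AI2.2-A, 13.1 CPM with the other isolates and 6.86 CPM in Control. Chlorophyllase-1-like (LOC117842290) was also above the other isolates, by 2.04 ± 0.26, as was plant cysteine oxidase 2-like (LOC117850613), by 0.77 ± 0.07. A beta-glucosidase 29-like gene (LOC117842554) was 2.91 ± 0.48 above the other isolates but was not called against Control (adjusted p = 0.0679 in edgeR), where its groups overlapped, though leaving out Control replicate 2 gave an adjusted p of 0.0254.

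A further 5 genes were below the other isolates. Abscisic acid 8'-hydroxylase 3-like (LOC117842728), which inactivates abscisic acid, stood at 4.91, 8.31, 5.62 and 12.3 CPM with AI2.2-A and averaged 32.6 CPM with the other isolates and 18.9 CPM in Control, a log2 fold change over the other isolates of -2.01 ± 0.24. A 70 kDa heat shock protein 4-like gene (LOC117840145) stood at 36.3, 74.5, 56.6 and 57.2 CPM with AI2.2-A, between 165 CPM with the other isolates and 24.5 CPM in Control, so it was lower than the other isolates and higher than Control. Alpha-amylase 3D-like (LOC117860059), a starch-cleaving enzyme, averaged 74.9 ± 43.2 CPM with AI2.2-A, 249 CPM with the other isolates and 260 ± 68.2 CPM in Control. A dihydroflavonol 4-reductase gene (LOC117838561) averaged 19.4 ± 7.76 CPM with AI2.2-A, 58.9 CPM with the other isolates and 31.9 ± 2.82 CPM in Control, with overlapping groups against Control. A second indole-2-monooxygenase-like gene (LOC117862789) averaged 21.7 CPM with AI2.2-A, 61.1 CPM with the other isolates and 41.2 CPM in Control. CCA1 (LOC117861503, 0.16 ± 0.07 over the other isolates), nitrate reductase (LOC117860413, 0.62 ± 0.29), malic enzyme (LOC117857444, 0.23 ± 0.10) and pyruvate, phosphate dikinase 2 (LOC117850669, 0.04 ± 0.09), all changed against Control, were not called between AI2.2-A and the other isolates, with adjusted p of 0.0852, 0.11, 0.0882 and 0.731 in edgeR.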

How the data were processed

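Shoot RNA was measured by TruSeq Stranded Total RNA sequencing. The authors deposited raw read counts per gene, 1 column per library and not pooled, from featureCounts per the file headers. FastQC, Trimmomatic, HISAT2, featureCounts and DESeq2 are named in the submitters' processing notes without role or order. Genome build, annotation and strandedness in counting were not given in the sources used here. Values of overlapping genes, antisense genes and near-identical copies are therefore uncertain. The authors also deposited a table of AI2.2-A against Control with a mean normalised signal, a log2 fold change, a test score and adjusted p-values per gene (within 0.000538 of a Benjamini-Hochberg adjustment of the score).

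Counts were analysed in R 4.3.3 by edgeR 4.0.16 (filterByExpr, TMM factors, quasi-likelihood F test, 15 libraries in a fit of 4 groups, Benjamini-Hochberg adjustment, adjusted p under 0.05). The filter kept 20310 of 28032 genes, and 2690 had no count anywhere. Standard errors were the log2 fold change divided by the square root of F. CPM used TMM-scaled totals with no prior. Every named adjusted p is from edgeR over all genes tested. Since the labels do not say what the biological replicates share, p-values measure the spread between these libraries. Names came from the gene descriptions in the authors' deposited table of AI2.2-A against Control, which covered 20268 of the tested genes. There were 90 gene lists, built from words in those descriptions. The members and lists were chosen with earlier results of these data known. For naming genes, the rule took per list those with the smallest p among those whose average log2 CPM reached 3. It also took the genes of highest CPM among those changed at least 2-fold without overlap between AI2.2-A and Control. For genes named by that part alone, the lack of overlap was fixed by the choice. Added were the smallest p outside lists, genes at 0 in 1 group, and low-oxygen and nitrate genes. The extremes against the other isolates were taken among genes without overlap with them. The rule gave 306 genes beside those at 0 in 1 group, and the ones described were picked from them after their values were seen. Alternatives were DESeq2 1.42.0, limma-voom 3.58.1, other scalings, filters and designs, and leaving out each AI2.2-A or Control library in turn. Figures used matplotlib 3.10.9 and Python 3.11.15.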

Additional observations from a re-analysis of the deposited data

Results flagged for a closer look

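In 16 of the 258 groups of 4 values examined, a single library lay far from the other 3, a distance that chance gives in about 1 of 20 groups, or 12.9 of this many. No explanation was tested. With AI2.2-A, replicate 4 was low for RAP2-4-like (LOC117838467) at 103 CPM and high for peroxidase 1-like (LOC117858930) at 963 CPM. AI2.2-A replicate 3 was high for beta-glucosidase 29-like (LOC117842554) at 30.4 CPM and low for REVEILLE 6-like (LOC117866937) at 43.1 CPM. AI2.2-A replicate 1 was low for caffeoylshikimate esterase-like (LOC117847593) at 38.2 CPM. AI2.2-A replicate 2 was high for the summed photosystem list at 25286 CPM and for the summed cytosolic ribosomal list at 32604 CPM.

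Control replicate 1 accounted for 6 of the 16. It was high for the carbonic anhydrase (LOC117855863) at 2232 CPM, glutamine synthetase 1-1 (LOC117837154) at 211 CPM, the D27 isomerase (LOC117859878) at 25.6 CPM and NAD(P)H nitrate reductase (LOC117839581) at 7.29 CPM. The same library was low for ent-copalyl diphosphate synthase 2-like (LOC117841994) at 6.14 CPM and ent-kaurene oxidase 2-like (LOC117853040) at 11.3 CPM. Control replicate 2 was high for alcohol dehydrogenase 2 (LOC117834143) at 10.1 CPM and for a second indole-2-monooxygenase-like gene (LOC117862789) at 47.7 CPM, and Control replicate 4 was low for the summed pathogenesis-related list at 1510 CPM.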

How the results depend on the processing

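No gene called between AI2.2-A and Control was called in the opposite direction under any of 17 alternatives, and 7859 (library totals alone) to 9529 (limma-voom) of the 9687 calls were made again in the same direction. With a stricter threshold, an adjusted p under 0.01, included, the count of changed genes ran from 6742 (that threshold) to 10971 (limma-voom), higher ones from 3249 to 6497, lower ones from 3116 to 5672, and those changed at least 2-fold from 1786 to 2503. Among the 17 alternatives the lowest count was 8320, with Control replicate 4 left out, and library totals alone gave the 3116 lower genes. Against the other isolates, the stricter threshold left 3878 genes, 2040 higher and 1838 lower. Of 116 genes described, 7 lost or gained a call or moved by over 1.5 times: a hemoglobin-like gene and RAP2-4-like as given above, beta-glucosidase 29-like, which was called in 6 alternatives, and the 4 genes without reads in Control, whose fitted folds depend on the tool. Of 90 lists, 32 turned their leading direction or moved its count by over 1.5 times in some alternative, and the values of those described are given with them; the cause was not tested. Replicate numbers are shared between the groups, but same-numbered libraries did not deviate together, with correlations of 0.0409, -0.0495, 0.00663 and 0.142. With the replicate block 9318 genes were called, 4574 higher and 4744 lower, and 6695 against the other isolates. With the replicate block in a fit of the 8 AI2.2-A and Control libraries, an alternative chosen after seeing the data, 9234 were called. Depth limits calls among genes of low counts, and promoter motifs were not analysed here.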

Other observations

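Of 162 cysteine, aspartic and carboxypeptidase-type protease genes 64 rose (39.5%) and 19 fell, with a median log2 fold change of 0.30. Serine carboxypeptidase-like 34 (LOC117863508, 1.74 ± 0.15) stood at 98.6, 70.1, 94.2 and 65.2 CPM with AI2.2-A, against 20.3, 22.6, 28.0 and 27.6 CPM in Control. The vacuolar-processing enzyme-like gene (LOC117847121, -1.26 ± 0.17), of a family that matures vacuolar proteins, stood at 26.6, 31.4, 32.1 and 37.5 CPM with AI2.2-A, against 74.8, 72.6, 83.4 and 74.9 CPM in Control. Groups were apart in both genes.

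Photorespiration genes summed to 1701 ± 155 CPM with AI2.2-A and 2240 ± 115 CPM in Control (SD, n = 4 each), although 11 of 26 rose and 7 fell. Peroxisomal hydroxy-acid oxidase GLO5 (LOC117843867, -0.97 ± 0.09), which oxidises glycolate, stood at 226, 284, 200 and 243 CPM with AI2.2-A, against 483, 436, 483 and 464 CPM in Control. The methionine and polyamine list summed to 14487 ± 1209 CPM with AI2.2-A and 18287 ± 524 CPM in Control, while its polyamine oxidase 1-like gene (LOC117838584, 0.98 ± 0.12) rose, with 829, 693, 696 and 618 CPM with AI2.2-A, against 372, 395, 331 and 341 CPM in Control. Of 42 small heat shock and heat factor genes 17 rose and 5 fell against Control, whereas 4 were higher and 16 lower than with the other isolates, and 3 and 8 with AI2.2-A replicate 1 left out.

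In the authors' deposited table of AI2.2-A against Control, 10097 of 23214 genes had an adjusted p under 0.05, 5125 higher and 4972 lower. Of these, 9214 were also called here with the same sign and 0 with the opposite sign.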
